A study of Mus musculus with 16 samples.

Results

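The antioxidant and glutathione enzymes were taken as a group of 56 mouse genes, chosen by gene symbol alone. They were the glutathione transferases of the alpha, kappa, mu, omega, pi and theta classes (Gsta, Gstk, Gstm, Gsto, Gstp, Gstt) and the microsomal glutathione transferases (Mgst). With them came the glutathione peroxidases (Gpx), the peroxiredoxins (Prdx), the thioredoxins with their reductases and Txnip, and the superoxide dismutases (Sod). The single genes Cat, Gclc, Gclm, Gsr, Gss, Nqo1 and Srxn1 completed the group. The count table listed RefSeq transcripts, here called entries, and the 56 genes had 137 of its 130343 entries. Of these, 46 entries of 40 genes passed a filter of a CPM (counts scaled to the library total) above 1 in at least 3 of the 16 libraries and were tested among 13288 entries in all. The other 91 member entries were too low to test, and 58 of them had no count in any library.

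Poly(A)-selected RNA was sequenced from 8 male wild-type C57Bl/6 mice (C57BL/6J in the study's methods), each of which gave 1 library of subcutaneous adipose tissue (SAT, from the inguinal depots of both sides) and 1 of mesenteric visceral adipose tissue (VAT). The 4 obese mice had been fed from the age of 10 weeks, over 12 to 14 months, on food that supplied 42% of energy as fat and held 0.2% cholesterol, and the 4 lean control mice a normal laboratory diet over the same time. No mouse carried a transgene or received another agent, and visible vessels had been dissected away. The 4 groups were SAT of lean mice, SAT of obese mice, VAT of lean mice and VAT of obese mice, with 4 libraries each.

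Library totals ran from 1256082 to 16614407 counts. The 2 shallowest libraries were VAT of lean mouse 1 (1256082) and VAT of obese mouse 1 (2247737), in which 3 counts were worth 2.39 and 1.33 CPM, and member calls gained or lost without this pair are given with both values. Members held 0.798% to 0.862% of the counts in SAT of lean mice, 0.685% to 0.713% in SAT of obese mice, 0.759% to 0.83% in VAT of lean mice and 0.651% to 0.729% in VAT of obese mice. These shares are unscaled and are not compared, since the TMM factors, which scale the values below, were 0.943 to 1.02 in SAT of lean mice and 0.788 to 0.880 in SAT of obese mice. As a check of the depot labels, mesothelial markers summed to 250 to 610 CPM in VAT and at most 1.41 CPM in SAT of either diet, and all 9 adipocyte marker symbols were above 1 CPM. The RNA came from whole tissue, so fewer cells of a type and less RNA per cell cannot be told apart.

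These enzymes form the main chemical defence of cells against reactive oxygen species and electrophiles. Superoxide dismutases turn superoxide into hydrogen peroxide, and catalase, glutathione peroxidases and peroxiredoxins reduce the peroxide, the last of these with electrons from thioredoxin. Glutathione transferases couple glutathione to electrophiles such as the aldehydes of lipid peroxidation, and many of these genes are known targets of the transcription factor NRF2. In adipose tissue, where lipid peroxidation products are abundant, Gsta4 is known as the transferase with high activity for 4-hydroxynonenal.

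The sequences before the transcription start are shown for 4 of the genes whose transcripts fell in obese mice in at least 1 depot, to set their promoters side by side. RefSeq promoters of build GRCm38.p6 matched 48 of the 56 genes, with 61 promoters of 300 bases (250 before the start and 50 after it). The windows were searched on both strands for the core of the NRF2 antioxidant response element, TGACNNNGC. Capitals mark a match, and each line gives the 250 bases before the start, 5′ to 3′.
Mgst1, chr6:138140277-138140526 (plus strand): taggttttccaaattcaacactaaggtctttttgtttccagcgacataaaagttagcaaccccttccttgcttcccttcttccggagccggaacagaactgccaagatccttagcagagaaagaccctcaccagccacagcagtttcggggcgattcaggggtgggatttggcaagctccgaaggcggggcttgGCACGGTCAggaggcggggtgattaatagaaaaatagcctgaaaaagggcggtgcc
Mgst3, chr1:167393842-167394091 (minus strand): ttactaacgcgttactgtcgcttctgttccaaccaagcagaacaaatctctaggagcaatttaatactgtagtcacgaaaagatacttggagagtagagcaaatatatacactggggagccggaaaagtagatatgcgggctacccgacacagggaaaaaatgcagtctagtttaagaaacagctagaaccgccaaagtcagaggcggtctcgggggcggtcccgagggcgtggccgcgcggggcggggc
Gstk1, chr6:42245685-42245934 (plus strand): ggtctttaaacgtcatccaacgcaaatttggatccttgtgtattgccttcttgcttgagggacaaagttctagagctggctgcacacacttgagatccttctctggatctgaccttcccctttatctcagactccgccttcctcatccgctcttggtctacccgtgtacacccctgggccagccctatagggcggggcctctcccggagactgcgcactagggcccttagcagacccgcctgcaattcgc
Cat, chr2:103485154-103485403 (minus strand): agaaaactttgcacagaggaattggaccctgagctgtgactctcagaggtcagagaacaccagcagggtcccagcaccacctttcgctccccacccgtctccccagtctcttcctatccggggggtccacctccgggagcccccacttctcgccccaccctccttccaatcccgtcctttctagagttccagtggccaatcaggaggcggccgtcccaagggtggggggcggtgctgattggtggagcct
The match in Mgst1 lay 56 bases before the start on the opposite strand, so that it reads GCACGGTCA on the strand shown, and the windows of Mgst3, Gstk1 and Cat held no match. Among the 61 member promoters 9 held the core, 1 each of Gclm, Gsta3, Gstm5, Gstm7, Mgst1, Prdx1, Sod1, Srxn1 and Txnrd1, beside 4071 of all 32851 promoters (12.4%). A match is a description of the letters only, and no match says only that these letters were not in the window.

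Levels between genes were compared as mean CPM per kilobase of transcript over all 16 libraries. Catalase (Cat), the peroxisomal enzyme that splits hydrogen peroxide, had the highest level at 834 CPM per kilobase. Next over the pooled libraries came the mu class transferase Gstm2 at 328, the extracellular superoxide dismutase Sod3 at 313 and the cytosolic peroxiredoxin Prdx1 at 286, all in CPM per kilobase. The microsomal transferase Mgst3 stood at 210, thioredoxin 1 (Txn1) at 191, Gstp1 at 135, Gstk1 at 117 and Gsto1 at 76.0 CPM per kilobase. Gsta4 was far lower at 23.6, and Gclm, the regulatory subunit of the enzyme that starts glutathione synthesis, stood at 13.0 CPM per kilobase. The order of genes with close levels is not read from these means, since Sod3 and Mgst3 were lower in VAT than in SAT. These levels are comparable only among the 26 genes with a single entry, 19 of them tested, which held 93.8% of all member counts. For the 30 genes with several entries, reads that fit more than 1 transcript appeared to be left uncounted, and Gpx1, Gpx3, Gpx4, Prdx6, Gclc, Gss and Txnrd1 therefore have no reliable level here.

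**Figure D1:**
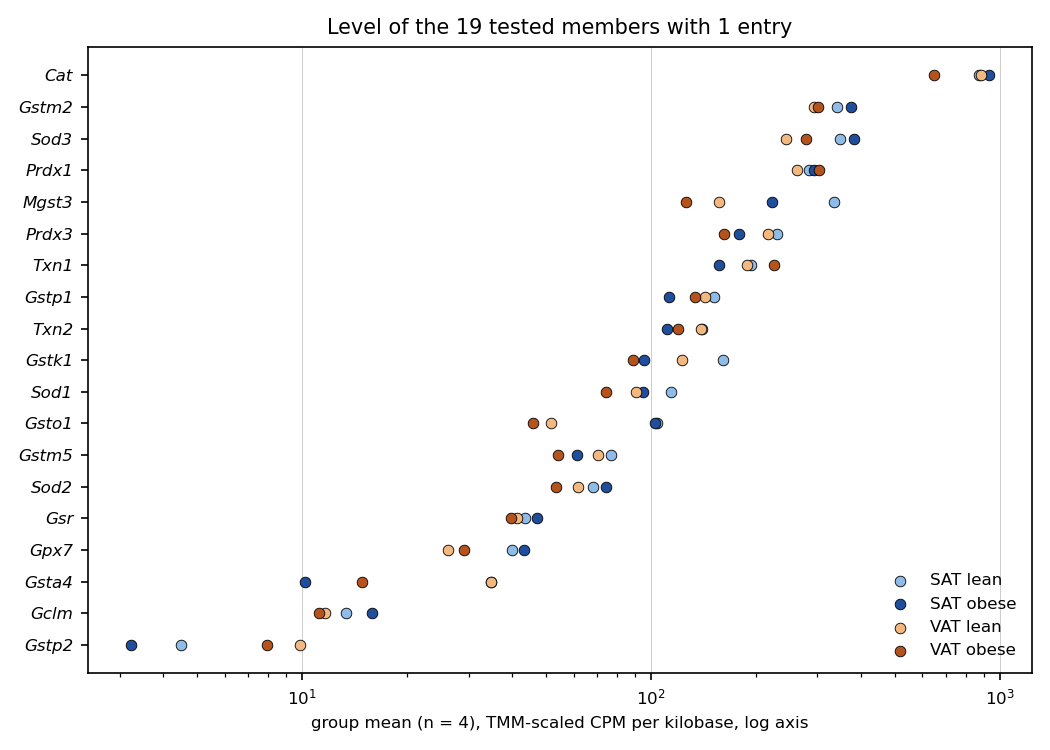
Mean level of each of the 19 tested members with a single entry, in CPM per kilobase of transcript on a log axis, with 1 point per group of 4 libraries. Cat stands highest with a mean of 834 over the 16 libraries, and Gclm and Gsta4 lie near the lower end at 13.0 and 23.6.

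The first comparison asked how the diet changed these enzymes in SAT. In obese mice 5 of the 46 tested member entries were lower and 0 were higher (edgeR quasi-likelihood test, Benjamini-Hochberg adjusted p under 0.05 over all 13288 entries). Among all tested entries 4.85% were called lower and 6.2% higher, so the lower calls made up 10.9% of members against 4.85% of entries in all. At an unadjusted p under 0.05 there were 15 of 46 member entries, of both directions together, beside 3343 of all 13288 entries. DESeq2 called 6 and limma voom 7, all lower. The 5 were the transferases Gsta4, Gstk1, Mgst3 and Gstt1 and the peroxidase Gpx3.

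Gsta4 (chr9:78090056-78117763, plus strand, GRCm39), the alpha class transferase for lipid aldehydes, was the only member called in both depots by this edgeR fit (Gstk1 and Prdx3 also passed in both under some alternatives, given with them). Its TMM-scaled CPM in SAT of lean mice 1 to 4 was 53.6, 90.5, 104 and 45.3, and in SAT of obese mice 21.1, 17.7, 22.6 and 24.6. Every obese mouse was below every lean mouse, and the lean mice were the more widely spread. Obese minus lean, it differed by a log2 fold change of -1.77 ± 0.24 (SE, n = 4 per group), or 0.293 times the lean level, with an adjusted p of 4.132e-05 in edgeR. It was 1 of 2 members lower by more than 1.5 on the log2 scale, the other being Gpx3, beside 1.25% of all entries lower and 1.5% higher by that much.

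Gstk1 (chr6:42222830-42227386, plus strand), the kappa class transferase of mitochondria and peroxisomes, read 136, 164, 184 and 148 CPM in SAT of lean mice 1 to 4. In SAT of obese mice it read 90.4, 90.2, 93.4 and 101.1 CPM. The obese mice lay close together and below all lean mice. Obese minus lean, the log2 difference was -0.75 ± 0.16 (adjusted p = 0.004175 in edgeR).

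Mgst3 (chr1:167196550-167221687, minus strand), a membrane-bound transferase that also reduces lipid peroxides, read 459, 424, 593 and 415 CPM in SAT of lean mice and 272, 315, 314 and 353 CPM in SAT of obese mice. The groups did not overlap, and lean mouse 3 stood above the rest. Its log2 fold change was -0.59 ± 0.15 (edgeR adjusted p = 0.01392), and without lean mouse 3 it was -0.47 with an adjusted p of 0.06513.

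Gstt1 (chr10:75618994-75634445, minus strand), a theta class transferase, had 2 tested entries. The larger read 30.9, 41.8, 48.2 and 27.4 CPM in SAT of lean mice and 30.8, 21.1, 21.0 and 20.2 CPM in SAT of obese mice. Obese mouse 1 lay inside the lean range, and the other 3 obese mice lay below it. Its log2 fold change was -0.68 ± 0.20 (edgeR adjusted p = 0.02847). The adjusted p passed 0.05 when lean mouse 2 or 3, or obese mouse 2, 3 or 4, was left out (0.07555 to 0.127), and the smaller entry had a log2 fold change of -0.65 (adjusted p = 0.1283).

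Gpx3 (chr11:54793279-54802424, plus strand), the plasma glutathione peroxidase, had 1 of its 2 entries tested, on few counts. The counts were 12, 17, 30 and 2 in SAT of lean mice and 3, 3, 7 and 2 in SAT of obese mice, or 0.991, 2.39, 2.86 and 0.425 CPM against 0.231, 0.318, 0.483 and 0.154 CPM. Lean mouse 4 lay among the obese mice and the other 3 lean mice above them. The log2 fold change was -2.48 ± 0.64 (edgeR adjusted p = 0.01429), and the call was lost without lean mouse 3 (adjusted p = 0.06364) or without obese mouse 4 (0.05503).

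Several members missed the threshold in SAT with small errors. Txn2, the mitochondrial thioredoxin, had a log2 fold change of -0.34 (adjusted p = 0.05416) with groups that did not overlap, the pi class transferase Gstp1 -0.42 (0.07609), and the mitochondrial peroxiredoxin Prdx3 -0.37 (0.09877), all in edgeR. Fitted without VAT of lean mouse 1 and of obese mouse 1, the SAT comparison gave 10 lower members, the 5 above with Gpx1 (adjusted p = 0.04271, from 0.1999), Gstp1 (0.02484), Prdx3 (0.01752), Txn1 (0.04944, from 0.1351) and Txn2 (0.01631). With SAT libraries alone the count was 9, all lower, and leaving out 1 mouse at a time gave 2 (without lean mouse 3) to 8 (without lean mouse 1), all lower.

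In VAT, 3 of the 46 member entries were lower in obese mice and 0 were higher in edgeR. The background was 4.09% of all entries lower and 6.82% higher, and the 3 made up 6.52% of the members. At an unadjusted p under 0.05 there were 7 of 46 member entries, a smaller share than the 3137 of all 13288 entries. DESeq2 and limma voom each called 5, all lower. No called member had a log2 fold change beyond 1.5 in size, beside 0.835% of all entries lower and 2.33% higher. The 3 were Gsta4, Mgst1 and Cat.

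Gsta4 read 48.7, 94.5, 82.6 and 66.9 CPM in VAT of lean mice 1 to 4 and 19.9, 30.6, 37.6 and 37.2 CPM in VAT of obese mice. The groups did not overlap, as in SAT. The log2 fold change was -1.22 ± 0.24 (edgeR adjusted p = 0.001374), or 0.429 times the lean level. Its calls in both depots held in every alternative, with adjusted p up to 0.0005332 in SAT and 0.008771 in VAT.

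Cat (chr2:103284194-103316185, minus strand) read 1974, 2205, 2700 and 2355 CPM in VAT of lean mice and 1486, 1813, 1951 and 1505 CPM in VAT of obese mice. Every obese mouse was below every lean mouse, the highest obese value being just under the lowest lean one. The log2 fold change was -0.45 ± 0.12 (edgeR adjusted p = 0.01484), and the call was lost without lean mouse 3 (adjusted p = 0.06904) or obese mouse 4 (0.06709). In SAT, Cat read 2113, 2233, 2644 and 2132 CPM in lean mice and 2336, 2592, 2360 and 2454 CPM in obese mice. These groups overlapped, with a log2 fold change of 0.09 (95% interval -0.14 to 0.33).

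Mgst1 (chr6:138117314-138133774, plus strand), a membrane-bound transferase of the endoplasmic reticulum and mitochondria, had 2 of 7 entries tested. The larger read 3.84, 8.85, 9.22 and 6.74 CPM in VAT of lean mice and 0.0, 4.21, 3.74 and 2.57 CPM in VAT of obese mice, from 6, 148, 86 and 61 counts against 0, 51, 39 and 30. The 0 came from the shallow library of obese mouse 1. A count of 0 there allows up to 1.33 CPM by counting error alone, in CPM without the TMM scaling of the values above. Lean mouse 1 was the only lean mouse within the obese range. The log2 fold change was -1.33 ± 0.33 (edgeR adjusted p = 0.01009), and 0.05081 without obese mouse 4. In SAT the same entry read 8.43, 12.2, 11.7 and 10.6 CPM in lean mice and 7.23, 7.63, 7.31 and 10.3 CPM in obese mice, with a log2 fold change of -0.40 (adjusted p = 0.4283).

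Fitted without the 2 shallowest VAT libraries, the VAT comparison gave 6 lower members, the 3 above with Gstk1 (adjusted p = 0.01084), the second Mgst1 entry (0.01689, from 0.1377) and Prdx3 (0.009713). Gstk1 in VAT read 78.1, 123, 137 and 142 CPM in lean mice and 59.4, 89.8, 103 and 97.4 CPM in obese mice. Lean mouse 1 fell among the obese mice and the other 3 lean mice above them, and the log2 fold change was -0.47 (edgeR adjusted p = 0.07377). Gstk1 in VAT passed in 8 of 18 alternatives, among them DESeq2 (0.04585), limma voom (0.04491) and summed counts (0.03939), and its adjusted p ranged from 0.005007 to 0.1969 over all 18. Mgst3 in VAT read 171, 229, 259 and 227 CPM in lean mice and 129, 172, 222 and 190 CPM in obese mice, with overlap and a log2 fold change of -0.31 (adjusted p = 0.22). Leaving out 1 mouse at a time gave 1 (without obese mouse 4) to 5 (without lean mouse 1) lower members in VAT.

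**Figure D2:**
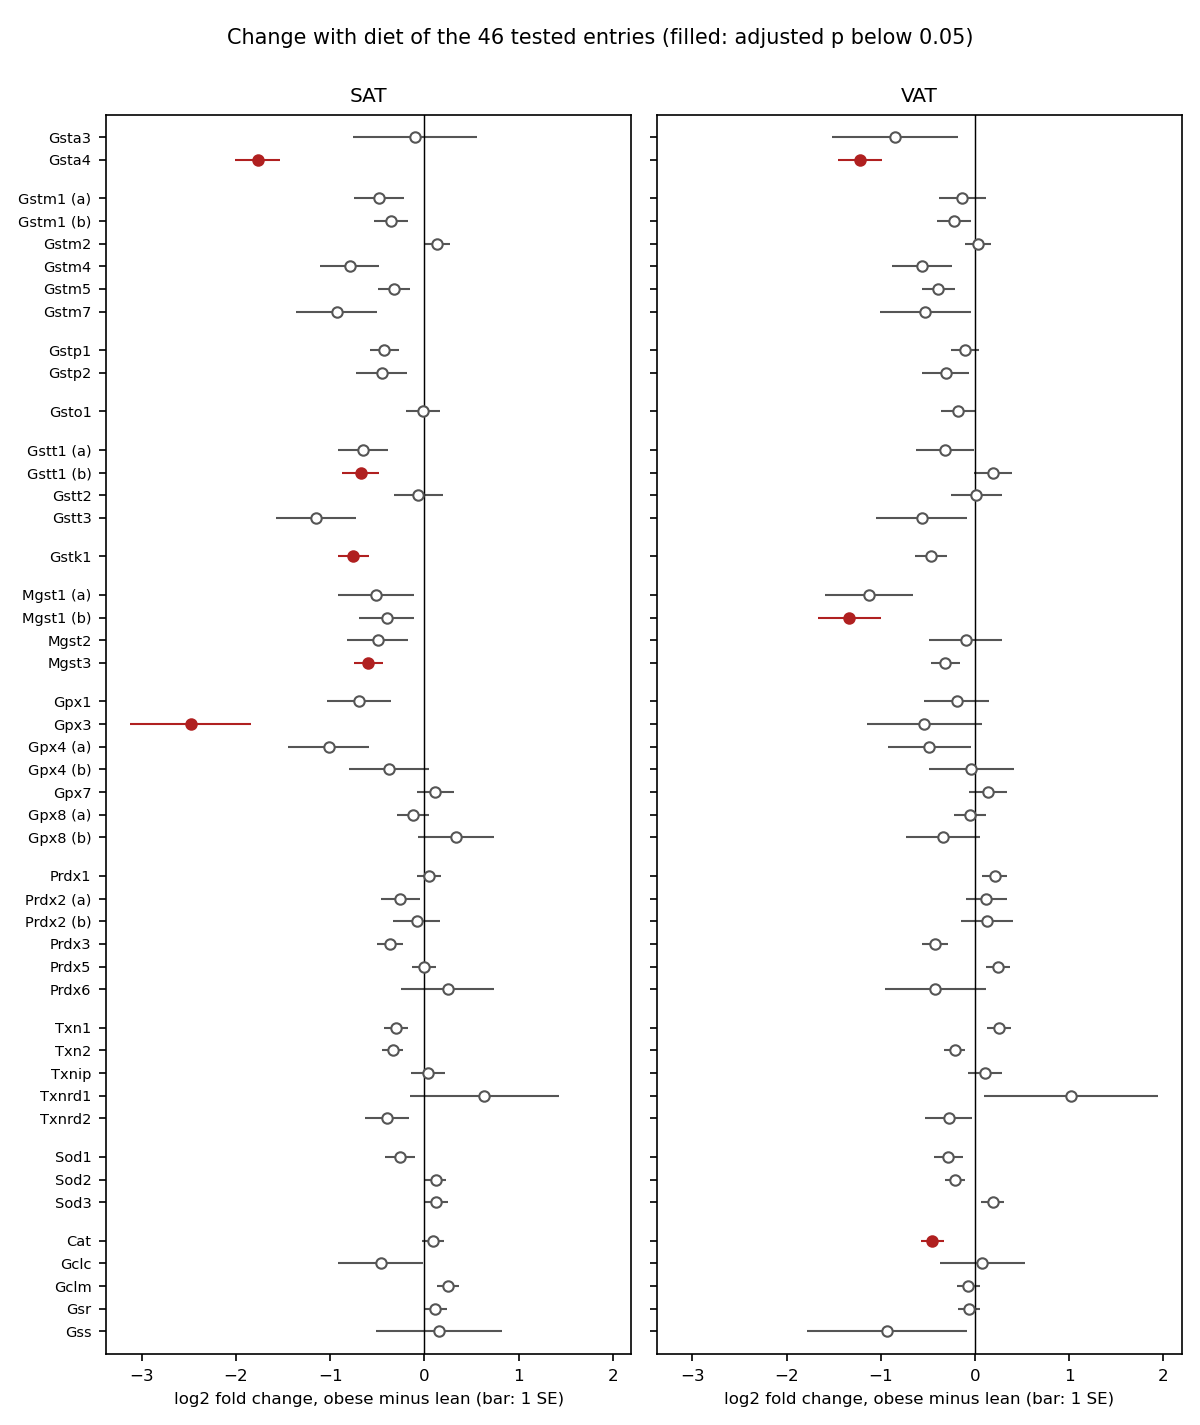
Log2 fold change, obese minus lean, of the 46 tested member entries in SAT (left) and VAT (right), with bars of 1 SE and filled red points for an edgeR adjusted p under 0.05 (a and b mark entries of 1 gene). The 5 called entries in SAT and the 3 in VAT all lie left of 0, Gsta4 at -1.77 and -1.22.

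The transferases leaned one way as a class. Of their 20 tested entries, with the microsomal ones included, 19 had a fold change below 0 in SAT (95%, median log2 fold change -0.49) and 17 in VAT (85.0%, median -0.32). Among all 13288 entries 49.3% were below 0 in SAT and 48.4% in VAT, with medians of 0.0071 and 0.018. The calls were 4 of 20 lower in SAT and 2 of 20 lower in VAT, with none higher. Of all entries 4.85% were called lower and 6.2% higher in SAT, and 4.09% and 6.82% in VAT. The other 26 member entries had 14 below 0 in SAT (median -0.04) and 16 in VAT (median -0.07). Most of these transferase entries did not pass the test singly, so the shares are descriptions of fitted signs.

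The exception among transferases in SAT was Gstm2, the mu class member with the highest counted level per kilobase, though several other mu class genes have more than 1 entry and may be undercounted. It read 370, 375, 407 and 328 CPM in SAT of lean mice and 416, 368, 416 and 422 CPM in SAT of obese mice. The groups overlapped, with a log2 fold change of 0.13 (95% interval -0.14 to 0.40, edgeR adjusted p = 0.6034). Of its 75-base windows 24.8% occur in another gene's transcript, and those of Gstp1 and Gstp2 are shared to 51.9% and 67.3%, so reads of these genes may have been split or left out.

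In edgeR, no tested peroxiredoxin or superoxide dismutase was called for diet in either depot, and no tested glutathione peroxidase but Gpx3. Gpx1, Gpx3, Gpx4 and Prdx6 have no reliable level, so their results say little about these genes. Prdx4, Prdx6b, Gpx2, Gpx5 and Gpx6 had no entry that could be tested. Prdx3 lay close to the threshold, with a mean of 266 ± 32.4 CPM (SD, n = 4) in SAT of obese against 343 ± 43.1 in lean mice, and 241 ± 23.9 against 322 ± 67.4 CPM in VAT, with overlap in both. Its log2 fold change in VAT was -0.42 (edgeR adjusted p = 0.05575). It was called lower in VAT by DESeq2 (0.03328) and with VAT libraries alone (0.04879), in SAT with SAT libraries alone (0.04038), and in both depots without the 2 shallowest VAT libraries. Sod3, which is secreted and binds the cell surface, read 1396, 1089, 1338 and 1661 CPM in SAT of lean mice and 1447, 1504, 1433 and 1605 CPM in SAT of obese mice. It read 854, 896, 1030 and 1045 CPM in VAT of lean mice and 1022, 1164, 1218 and 955 CPM in VAT of obese mice. Lean and obese mice overlapped in both depots, and the log2 fold changes were 0.13 (95% interval -0.11 to 0.37) and 0.19 (-0.05 to 0.43). Prdx1 likewise read 770 to 840 CPM in SAT of lean mice, 731 to 1008 in SAT of obese mice, 584 to 830 in VAT of lean mice and 718 to 1023 in VAT of obese mice, with log2 fold changes of 0.05 (-0.20 to 0.30) and 0.21 (-0.05 to 0.46).

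Of the genes for glutathione synthesis and recycling, Gclm and Gsr were not called for diet either. Gclc and Gss were not called, but their tested entries had means of only 1.11 and 0.654 CPM. They have no reliable level here, so synthesis was covered by Gclm alone. Gclm had a mean of 100.8 ± 9.07 CPM (SD, n = 4) in SAT of obese mice against 84.7 ± 2.39 in lean mice, without overlap but with an adjusted p of 0.196 in edgeR, and 70.8 ± 7.84 against 73.8 ± 11.3 in VAT. Gsr, the reductase that regenerates glutathione, had a mean of 126 ± 14.9 CPM against 116 ± 13.4 in SAT and 106 ± 7.82 against 110 ± 11.9 in VAT. Lean and obese values of Gsr overlapped in both depots.

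**Figure D3:**
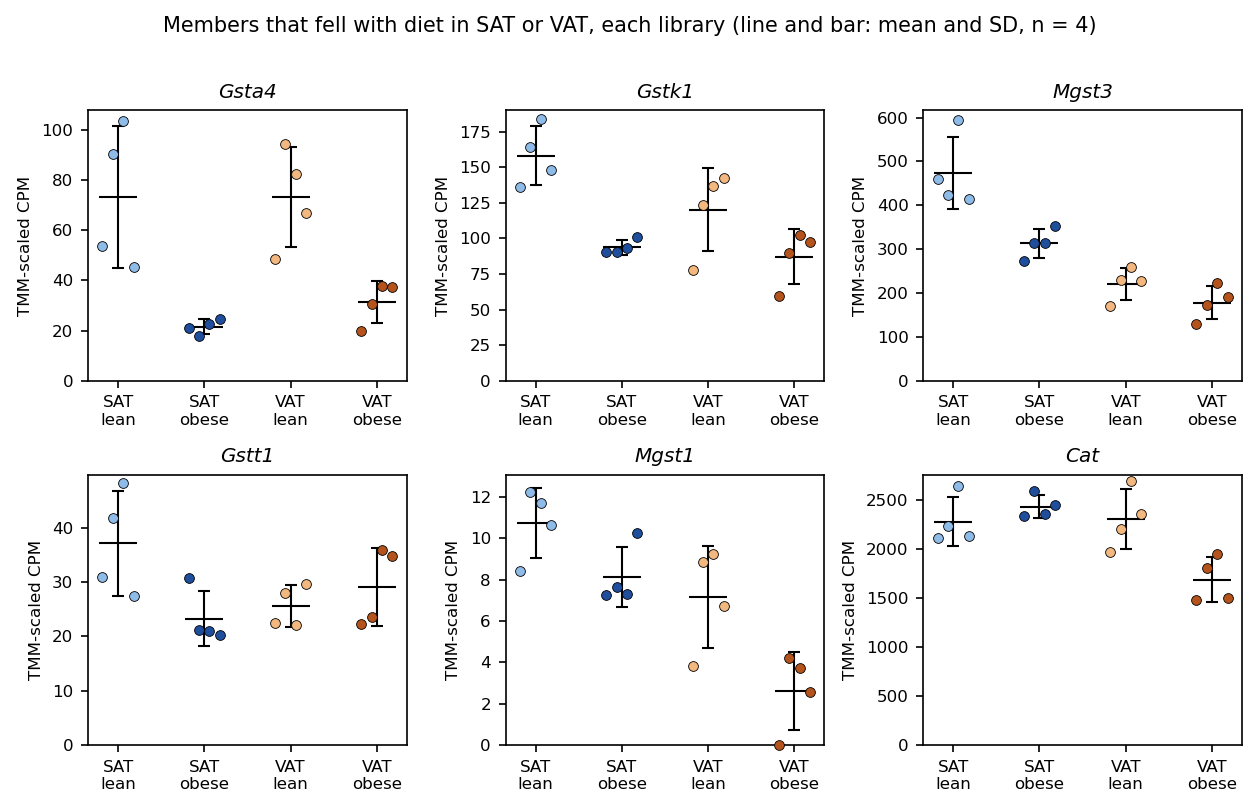
TMM-scaled CPM of Gsta4, Gstk1, Mgst3, Gstt1, Mgst1 and Cat in each of the 16 libraries by group, with the mean and SD of 4 mice. Gsta4 separates lean from obese mice in both depots, Gstk1 and Mgst3 in SAT, and Cat in VAT.

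Markers of other cells moved with the same comparisons. Macrophage markers were called higher in obese mice for 6 of 9 tested entries in SAT and 8 of 9 in VAT, none lower. Their summed level was 1423 to 2049 CPM in SAT of lean mice and 2311 to 3257 in SAT of obese mice, and 2501 to 3269 in VAT of lean mice and 5572 to 7938 in VAT of obese mice. Of the 10 macrophage markers only Adgre1 was below 1 CPM. Adipocyte markers were called lower for 3 of 17 entries in SAT and 7 of 17 in VAT, none higher, and summed to 16345 to 23592 against 18377 to 20413 CPM in SAT and 9302 to 12637 against 8174 to 10593 CPM in VAT. Lipid-associated macrophage markers were called higher for 3 and lower for 1 of 10 entries in SAT, and higher for 8 and lower for 1 in VAT, with Spp1 and Mmp12 below 1 CPM. Their summed level, mostly Lpl, was 44790 to 47920 against 34683 to 37765 CPM in SAT and 21198 to 28934 against 16206 to 19145 CPM in VAT. B cell markers were called higher for 0 of 5 entries in SAT and 3 of 5 in VAT, where they summed to 38.5 to 276 CPM in lean and 244 to 454 in obese mice. T cell markers were called higher for 1 of 5 in SAT and 3 of 5 in VAT, where they summed to 16.4 to 23.7 and 37.9 to 78.0 CPM. Intestinal epithelium markers were called for 0 of 8 entries in SAT and lower for 2 of 8 in VAT. Endothelium markers were called higher for 1 of 6 in SAT and for 0 of 6 in VAT. No tested entry of the other marker lists was called for diet. The part of these shifts in cell markers in the member changes was not tested.

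The next comparison asked whether the diet response of a member differed between VAT and SAT, fitted with the mouse as a block. Cat was the only member called of 46 (edgeR), and it lay on the lower side, where 1.29% of all entries were called against 0.88% on the higher side. The log2 fold change in VAT minus that in SAT was -0.55 ± 0.14 (edgeR adjusted p = 0.03813). This call was not stable, since the adjusted p was 0.05116 without the 2 shallowest VAT libraries and 0.07201 to 0.1205 when lean mouse 2, 3 or 4 or obese mouse 2 or 4 was left out. Without the mouse block it was 0.1255. In the same comparison macrophage markers were called higher for 1 of 9 entries and lipid-associated macrophage markers for 3 of 10. B cell markers and fibroblast and progenitor markers were each called higher for 1 of 5. Adipocyte markers were called lower for 2 of 17 and endothelium markers for 2 of 6. The part of these markers was not tested.

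Txn1, the cytosolic thioredoxin, came nearest among the other members, on the higher side. It read 202, 190, 218 and 212 CPM in SAT of lean mice and 153, 162, 165 and 187 CPM in SAT of obese mice, without overlap. In VAT it read 172, 217, 221 and 194 CPM in lean mice and 195, 228, 229 and 306 CPM in obese mice, with overlap and obese mouse 4 the highest. The difference of the log2 fold changes was 0.54 (edgeR adjusted p = 0.06161), and DESeq2 called it (0.01487). For Gstt1, with VAT values of 22.4, 27.9, 22.1 and 29.6 CPM in lean mice and 22.2, 23.5, 35.8 and 34.8 CPM in obese mice, the difference was 0.88 (edgeR adjusted p = 0.1045), and 1.15 without the 2 shallowest VAT libraries (0.03286). For Gsta4 the difference was 0.51 (0.271), for Gstk1 0.29 (0.5032), for Mgst3 0.26 (0.515) and for Mgst1 -0.95 (0.2958), so a response in only 1 depot was not shown for these genes.

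The depots themselves were then compared within mice, with the mouse as a block. In lean mice 9 of 46 member entries were lower in VAT than in SAT and 3 were higher (edgeR), or 19.6% and 6.52% of members beside 6.84% and 8.0% of all entries. In obese mice 11 were lower and 6 higher, or 23.9% and 13.0% of members beside 13.5% and 15.9% of all entries. The genes described for this comparison alone were picked after their values had been seen.

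Gsto1, the omega class transferase with glutathione-dependent reductase activity, was lower in VAT in all 8 mice. It read 212, 171, 201 and 208 CPM in SAT and 58.3, 110, 111 and 113 CPM in VAT of lean mice 1 to 4, and 144, 199, 193 and 247 CPM in SAT and 62.5, 99.8, 95.1 and 92.2 CPM in VAT of obese mice. No VAT library reached the lowest SAT library. The VAT to SAT ratio within a mouse was 0.275 to 0.645 in lean and 0.373 to 0.501 in obese mice, and the log2 fold changes were -1.01 (edgeR adjusted p = 2.322e-05) and -1.16 (2.006e-06).

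Mgst3 was also lower in VAT in all 8 mice, by log2 fold changes of -1.09 (adjusted p = 4.357e-07) in lean and -0.83 (9.627e-06) in obese mice in edgeR. Its VAT to SAT ratio was 0.373 to 0.547 in lean and 0.474 to 0.706 in obese mice. Sod3 was lower by -0.51 (0.001803) and -0.46 (0.002035), with ratios of 0.612 to 0.823 and 0.595 to 0.850. Neither gene overlapped between depots within a diet.

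Gpx7, an endoplasmic reticulum peroxidase, read 54.9, 41.7, 48.5 and 61.3 CPM in SAT and 20.5, 31.6, 39.2 and 43.6 CPM in VAT of lean mice. In obese mice it read 49.5, 56.7, 54.4 and 62.5 CPM in SAT and 21.8, 38.5, 43.3 and 46.9 CPM in VAT. It was lower in VAT in all 8 mice, with log2 fold changes of -0.58 in both diets (edgeR adjusted p = 0.01713 and 0.007687), and in lean mice the call was lost without mouse 1 (0.09161). Prdx5, a peroxiredoxin of mitochondria and peroxisomes, was lower by -0.68 (0.000601) and -0.45 (0.009482), the latter 0.09848 without obese mouse 2. Sod1, the cytosolic superoxide dismutase, was lower by -0.34 (0.03864) and -0.37 (0.01309), but neither Sod1 call held without the 2 shallowest VAT libraries (0.07517 and 0.07737).

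Gpx8, the related peroxidase anchored in the endoplasmic reticulum membrane, went the other way. Its main entry read 36.1, 38.1, 25.1 and 31.9 CPM in SAT and 45.5, 68.3, 61.2 and 64.1 CPM in VAT of lean mice, and 29.8, 23.9, 31.8 and 34.9 CPM in SAT and 46, 53.9, 59.1 and 73.1 CPM in VAT of obese mice. VAT was above SAT in all 8 mice, and the log2 fold changes were 0.89 (edgeR adjusted p = 0.000162) and 0.95 (2.988e-05). Gstp2 read 2.11 to 4.89 CPM in SAT and 5.76 to 9.54 CPM in VAT of lean mice, and 2.12 to 3.59 and 4.22 to 8.25 CPM in obese mice, with log2 fold changes of 1.22 (0.003068) and 1.30 (0.0007105). Gstp1, which shares much of its sequence, did not pass, reading 119 to 157 CPM in SAT and 98.6 to 158 CPM in VAT of lean mice and 85.1 to 130 and 96.2 to 138 CPM in obese mice. An entry of Gstm1 was higher by 0.82 (0.03433) and 1.27 (0.0005139), but counts summed over the gene gave 0.21 (0.4391) and 0.39 (0.05718).

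**Figure D4:**
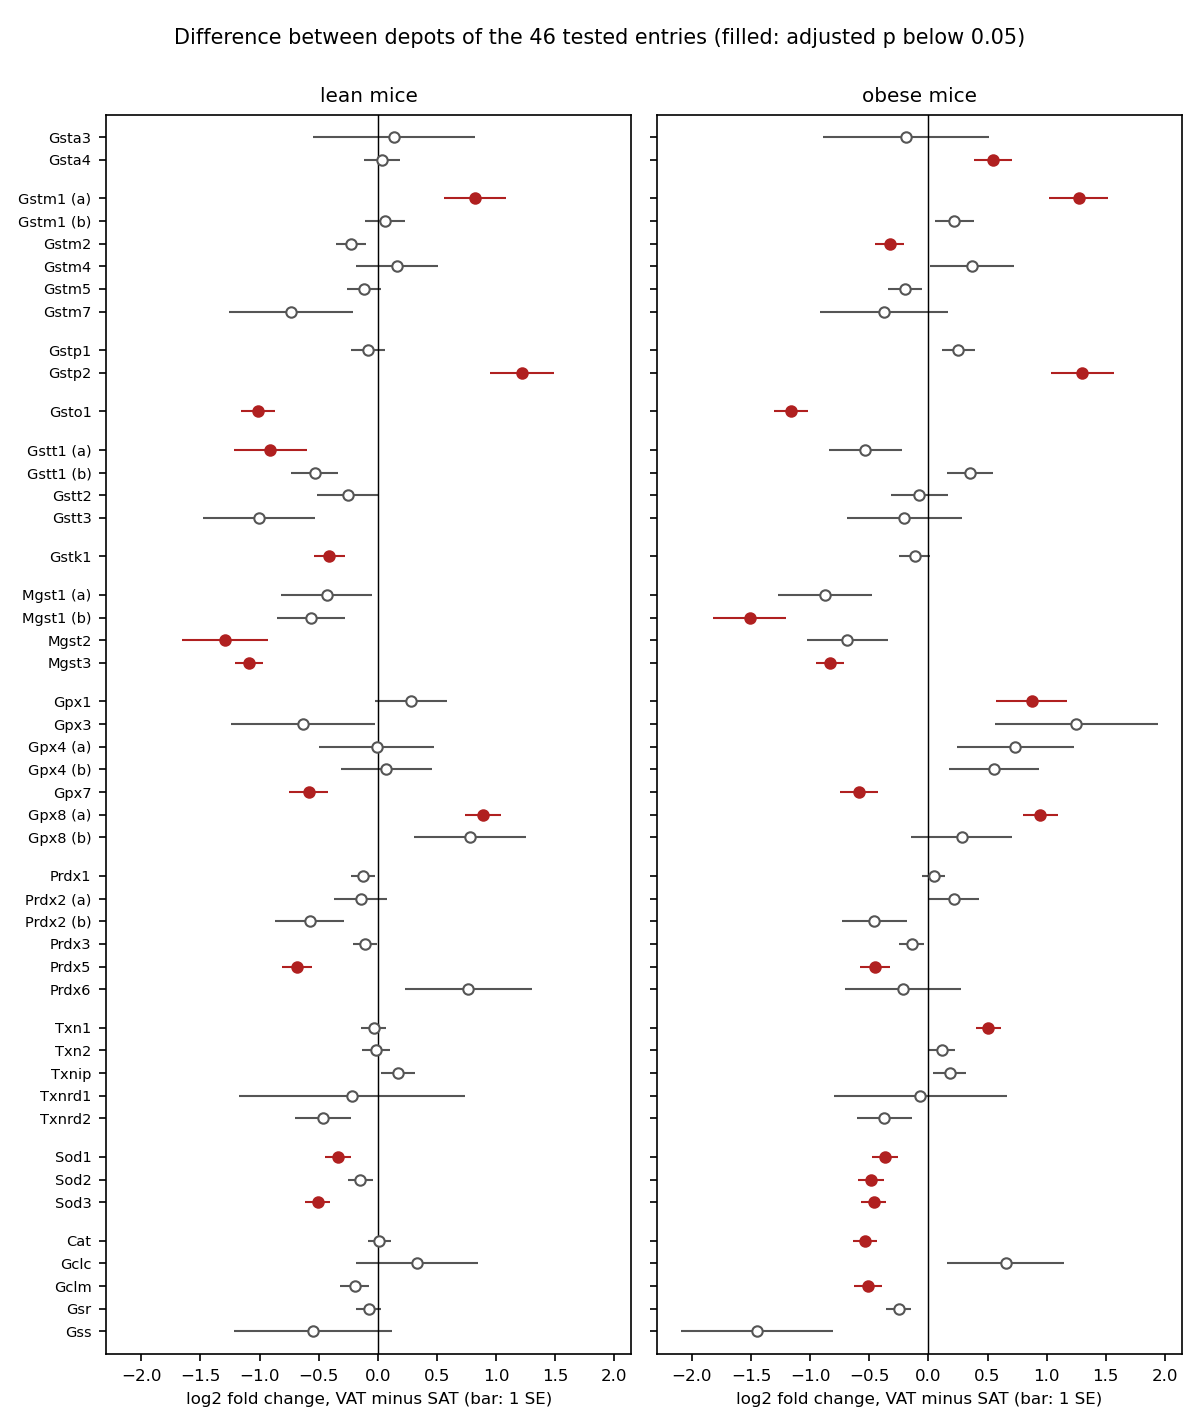
Log2 fold change, VAT minus SAT, of the 46 tested member entries in lean mice (left) and obese mice (right), with bars of 1 SE and filled red points for an edgeR adjusted p under 0.05. Gsto1 and Mgst3 lie to the left and Gpx8 and Gstp2 to the right in both panels.

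Some members passed between the depots of obese mice and not of lean mice. Cat was lower in VAT of all 4 obese mice, with a VAT to SAT ratio of 0.613 to 0.827 (log2 fold change -0.54, edgeR adjusted p = 0.0002341), and in lean mice the ratio was 0.934 to 1.10 (0.01, 0.9499). Txn1 was higher in VAT of all 4 obese mice (ratio 1.27 to 1.64, log2 fold change 0.51, adjusted p = 0.0008904), and in lean mice the ratio was 0.850 to 1.14. Sod2, the mitochondrial superoxide dismutase, was lower by -0.49 (0.001513), Gclm by -0.51 (0.002306) and Mgst1 by -1.51 (0.0006876) in obese mice. Gsta4 was higher by 0.55 (0.01165), Gpx1 by 0.87 (0.03066), and Gstm2 lower by -0.33 (0.04884). The calls of Gsta4, Gpx1 and Gstm2 were each lost when obese mouse 4 was left out (adjusted p of 0.05347, 0.1251 and 0.152 in edgeR). Over 17 alternatives they were lost in 5, 5 and 6. DESeq2 did not call Gpx1 (0.1797), which has no reliable level here. The test of the difference between diets is the one given above, which only Cat passed.

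**Figure D5:**
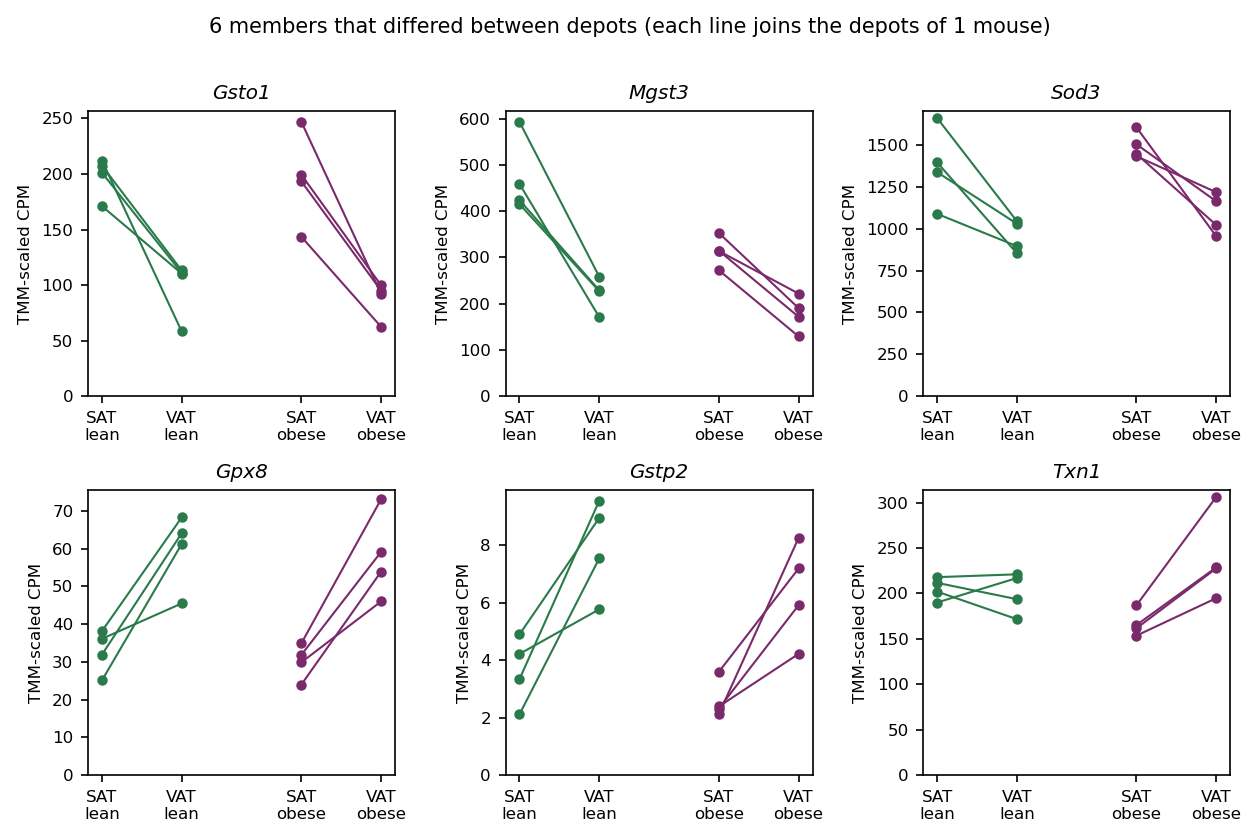
TMM-scaled CPM in SAT and VAT of each mouse, joined by a line, for Gsto1, Mgst3, Sod3, Gpx8, Gstp2 and Txn1. The lines fall in all 8 mice for Gsto1, Mgst3 and Sod3 and rise in all 8 for Gpx8 and Gstp2, and for Txn1 they rise in all 4 obese mice and 2 of 4 lean mice.

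In lean mice alone, Gstk1 (-0.41, edgeR adjusted p = 0.03529), the 1 tested entry of Mgst2 (-1.29, 0.01693) and the smaller Gstt1 entry (-0.91, 0.04891) passed as lower in VAT, and each was lost when some single mouse was left out. Without the 2 shallowest VAT libraries the counts were 10 member entries in lean and 17 in obese mice. The calls of Gstk1 in lean mice (adjusted p = 0.08331 in edgeR) and of Gstm2 in obese mice (-0.17, 0.224) were then lost, besides those of Sod1. In obese mice the larger Gstt1 entry (0.59, from an adjusted p of 0.1887 to 0.02841) and the second Mgst1 entry (-1.43, from 0.1031 to 0.005579) were gained. Leaving out 1 mouse gave 7 (without lean mouse 2) to 12 in lean mice. Macrophage markers were called higher in VAT for 6 of 9 entries in lean and 9 of 9 in obese mice, and mesothelial markers for 7 of 7 in both. B cell markers were called higher in VAT for 4 of 5 entries in lean and 5 of 5 in obese mice, T cell markers for 2 of 5 and 5 of 5, and lipid-associated macrophage markers for 0 of 10 and 7 of 10, with 1 of 10 lower in each. Adipocyte markers were called lower for 2 and higher for 1 of 17 entries in lean mice, and lower for 10 and higher for 3 in obese mice, and their sum was 20915 ± 3194 CPM (SD, n = 4) in SAT and 10927 ± 1612 in VAT of lean mice, and 19081 ± 907 and 9252 ± 1218 in obese mice. Fibroblast and progenitor markers were called higher in VAT for 2 and lower for 3 of 5 entries in both diets, with sums of 5668 ± 1293 in SAT and 2526 ± 540.1 CPM in VAT of lean mice and 4440 ± 250.03 and 3136 ± 260.4 in obese mice. Erythroid markers were called lower for 2 of 5 in both diets, and intestinal epithelium markers higher for 4 of 8 in lean and 2 of 8 in obese mice. Endothelium markers were called higher for 1 of 6 in lean and lower for 2 of 6 in obese mice. Exocrine pancreas markers, with all 8 symbols below 1 CPM, were called higher for 2 of 2 in lean and 1 of 2 in obese mice. The part of these markers in the depot differences was not tested.

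Genes that act on the same pathway but lie outside the symbol rule were counted in 7 lists, to be read beside the shares of all entries called, 6.2% higher and 4.85% lower in SAT and 6.82% and 4.09% in VAT. Among 21 entries for glutathione supply and use, 1 rose and 0 fell in SAT, Chac1, an enzyme that degrades glutathione, at 1.19 on the log2 scale (edgeR adjusted p = 0.007636). In VAT 1 rose and 2 fell, the largest change being 1.72 for Anpep, an aminopeptidase, at low levels of 0.559 ± 0.232 CPM in lean and 2.04 ± 0.979 CPM in obese mice (0.04767). Slc7a11, the cystine carrier that feeds glutathione synthesis, was too low to test.

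Of 14 entries for other NRF2 target genes, 4 rose and 1 fell in SAT, and 4 rose and 2 fell in VAT. Blvra, biliverdin reductase, rose most in both, by 1.90 (edgeR adjusted p = 0.01158) and 1.97 (0.02073), on 1 of its 7 entries. Hmox1, heme oxygenase 1, rose in VAT from 53.6 ± 14.2 to 129 ± 75.3 CPM (log2 fold change 1.25, 0.002554), while in SAT its log2 fold change was 0.54 (0.1862). Of 8 entries for NRF2 regulators none was called in SAT, and 1 fell in VAT, Nfe2l1 at -0.66 (0.01403). Transcripts of Nfe2l2, which encodes NRF2, had log2 fold changes of 0.01 in SAT (0.9705) and 0.20 in VAT (0.4512), and Keap1, its inhibitor, 0.14 (0.7544) and 0.05 (0.9355).

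The supply of NADPH, which drives the reductases of glutathione and thioredoxin, was covered by 19 entries, of which 3 rose and 0 fell in SAT (6.2% and 4.85% of all entries) and 0 rose and 3 fell in VAT (6.82% and 4.09%). The NRF2 target list also holds 3 of these entries, those of Me1, G6pdx and Pgd. Me1, cytosolic malic enzyme, with 1 of its 3 entries tested, rose in SAT from 45.9 ± 5.78 to 120 ± 20.1 CPM (log2 fold change 1.39, edgeR adjusted p = 5.917e-05) and fell in VAT from 85.2 ± 19.2 to 47.4 ± 16.7 CPM (-0.85, 0.005884). The difference between these responses was -2.26 (1.237e-06), and 2 of the 19 entries passed that test, both on the lower side.

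Of 18 entries for selenoproteins and their synthesis, Dio2, a deiodinase, fell in both depots, by -3.22 in SAT (edgeR adjusted p = 0.0002367) and -2.68 in VAT (0.001349), and no other passed. Selenop, the plasma selenium carrier, had log2 fold changes of 0.37 (0.1757) and 0.04 (0.9249). Of 11 entries for sources of superoxide and hydrogen peroxide, 0 rose and 3 fell in SAT, Prodh most at -2.65 (0.007768), and 4 rose and 2 fell in VAT. Of 19 entries for other oxidant defence, 4 rose and 0 fell in SAT and 3 rose and 1 fell in VAT, the metallothionein Mt1 most, by 1.95 (0.02006) and 2.10 (0.01765).

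Of the 56 genes, 16 had no entry that could be tested. They were Gpx2, Gpx2-ps1, Gpx5, Gpx6, Gsta1, Gsta2, Gstm3, Gstm6, Gsto2, Gstp3, Gstt4, Nqo1, Prdx4, Prdx6b, Srxn1 and Txnrd3. Nqo1, a quinone reductase and well-known NRF2 target, had a single entry matched by symbol, with 0 counts in all 16 libraries. This does not show that the gene was silent, since an entry of Gpx3 also had 0 counts while another of its entries had counts. Symbols matched 82.0% of entries, so Nqo1 may have a further entry without a symbol. Srxn1, which repairs overoxidised peroxiredoxins, had at most 3 counts in a library, and Gpx2, the gut form of glutathione peroxidase, 0 counts in 14 libraries, 1 in VAT of lean mouse 4 and 51 in VAT of lean mouse 2. Intestinal epithelium markers summed to 25.9 to 99.6 CPM in VAT of lean mice, 29.0 to 41.4 in VAT of obese mice and 18.7 to 30.8 in SAT, and their part in these counts was not tested.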

How the data were processed

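RNA of 16 libraries was analysed from a deposited table of the whole series. Per the study's methods and the submitters' processing notes, the authors trimmed paired-end reads (Trim Galore 0.6.6), aligned them to GRCm39 (HISAT2 2.2.0) and made the deposited counts per RefSeq transcript with HTSeq 0.13.5. The deposited CPM equalled the counts scaled to each column total. Reads fitting several transcripts of a gene appeared to be uncounted, which lowers genes with several entries. Library totals were 1256082 to 16614407 counts, and the precision of low entries follows from them.

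Counts were TMM-scaled and tested with edgeR 4.0.16 (quasi-likelihood, R 4.3.3, limma 3.58.1, filter of more than 1 CPM in at least 3 libraries). Diet contrasts used the 4 groups, and the difference and depot contrasts the mouse as a block. The study's methods tie the depots to mice, and deviations of the same mouse correlated at -0.009 to 0.173 (median 0.076, n = 8), against a median of -0.039 for other mice. Lean and obese libraries of 1 depot with the same number, from different animals, had a median of 0.068. The correlations alone therefore do not show the pairing. P-values were Benjamini-Hochberg adjusted over 13288 entries. Those for diet measure the spread between libraries of a group, estimated over all 16 libraries without a term for the mouse. Those for the difference and the depots measure the spread left within mice after the block. The 24 replicate pairs differed beyond counting noise (lowest chi-square per degree of freedom 8.46). Scripts were tested on simulated counts.

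Alternatives were other scalings, filters and tools (DESeq2 1.42.0, limma voom), summed counts, other blocks and leaving out each mouse. The fit without the 2 shallowest VAT libraries was chosen after seeing the data. Members and lists were chosen with earlier results of these data known. Named were members called for diet or its difference, the top member per kilobase of each family, and, in each list, the called gene with the largest change with Nfe2l2, Keap1, Hmox1, Slc7a11 and Selenop. A gene that this rule names is not reported here. Symbols matched 82.0% of entries. Gene positions are of GRCm39 (GENCODE), promoter sequences of GRCm38.p6 (RefSeq).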

Additional observations from a re-analysis of the deposited data

Results flagged for a closer look

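Among 96 groups of 4 libraries checked over 24 named entries, 6 held a library set apart from the other 3 by Dixon's criterion, and chance alone marks about 1 group in 20. In SAT of obese mice, Mgst1 read 10.3 CPM in mouse 4 against 7.23 to 7.63 in the others, Gstt1 read 30.8 CPM in mouse 1 against 20.2 to 21.1, and Gstm2 read 368 CPM in mouse 2 against 416 to 422. In VAT of lean mice, mouse 1, which had the shallowest library, read 60.2 CPM for Gpx1 against 15.6 to 21.7 in the others and 58.3 CPM for Gsto1 against 110 to 113. In VAT of obese mice, mouse 1, also shallow, read 2.68 CPM for Mgst2 against 1.32 to 1.54.

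The diet response of Cat differed between the depots by the test of the difference itself, at -0.55 on the log2 scale (edgeR adjusted p = 0.03813). The call was lost in 7 of 17 alternatives, with adjusted p from 0.002932 to 0.1255 over all of them, among them the fits without the mouse block and without the 2 shallowest VAT libraries.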

How the results depend on the processing

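The count of 5 lower members in SAT became 9 when only SAT libraries were fitted, 10 without the 2 shallowest VAT libraries and 2 to 8 when 1 mouse was left out. The count of 3 in VAT became 6 with no filter on low counts and 6 without the 2 shallowest VAT libraries. It was 5 with edgeR's own filter, with DESeq2, with limma voom and with counts summed per gene, and 1 to 5 when 1 mouse was left out. Every call for diet in these fits was lower in obese mice. The single member whose diet response differed between depots became 0 without the mouse block, 2 with DESeq2 and 0 to 2 when 1 mouse was left out. Without the 2 shallowest VAT libraries it stayed at 1, but the call was Gstt1 on the higher side in place of Cat on the lower. Between depots, 12 calls in lean mice became 7 to 12 and 17 in obese mice 13 to 18 when 1 mouse was left out. Lean and obese mice with the same number are different animals, and fitting the number as a replicate block gave 7 lower members in SAT and 5 in VAT, with Gstk1 (adjusted p of 0.0004357 and 0.01901 in edgeR) and Prdx3 (0.02628 and 0.01249) called in both. The deviations of libraries that share a number between lean and obese mice correlated at -0.094 to 0.173 (median 0.068, n = 8). This was close to the median of 0.076 for the same mouse, so these correlations do not tell pairs from shared numbers. The numbers were not read as pairs of lean and obese mice, and what libraries of a number may share was not tested. The causes of these changes were not tested.

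Over 38 called values of named members, 581 of 654 alternatives kept the call, 73 lost it and 0 changed direction. Over 33 values that were not called, 18 of 581 alternatives passed the threshold and 24 changed sign. When 1 mouse was left out, the log2 fold change ranged from -1.12 to 0.29 for Gpx3 in VAT, -0.099 to 0.11 for Gstm2 in VAT, -0.15 to 0.10 for Gsto1 in SAT, -0.055 to 0.10 for Prdx1 in SAT, -0.23 to 0.0020 for Gstp1 in VAT and -0.0099 to 0.26 for Gpx7 in VAT. The difference between depots ranged from -0.24 to 0.0062 for Gstm2, -0.046 to 0.14 for Sod3 and -0.20 to 0.12 for Gpx7. With no filter on low counts it was -0.011 for Gstm2 in VAT, 0.012 for Gsto1 in SAT and -0.027 for the difference of Sod3. For Gstm2 in VAT it was -0.00017 with edgeR's own filter and -0.0073 with summed counts, and for the difference of Gpx7 0.026 without the replicate block and 0.019 with limma voom. The NRF2 core with an A after it was in 2 member promoters, against 9 for the core alone. In the 2 shallowest VAT libraries 3 counts were worth 2.39 and 1.33 CPM, which limits what entries at such levels can show.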
